A study of Mus musculus with 2 samples.

Results

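Tff3, Spink1, Mmp15, Foxq1, Egfr, Cib3 and Phlda1 are 7 of the 32285 genes in a single-cell count matrix of mouse liver. They were chosen by their higher level in hepatocytes of one of the libraries in that matrix, so that difference is given as a description and is not tested. Per the labels, 1 sample has the genotype Cebp KO and 1 has the genotype Cebp WT, and mice of both were given HFCFD, a diet high in fat, cholesterol and fructose (40% in the labels), for 2 weeks before the liver was digested. In the study's mice, floxed Cebpa was removed by Cre under the albumin promoter, which acts in hepatocytes, in a strain backcrossed to C57BL/6N, and control mice carried the floxed gene. The sources used here do not give the age of these mice or the number of mice behind each sample. Each sample was 1 capture lane of 10x Genomics 3' v3.1 chemistry. The barcodes carry a suffix, 1 or 2, that the labels connect with neither genotype, and no genotype was inferred, so values are given for the library with suffix 1 and the library with suffix 2.

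The members have different tasks in the cell. Tff3 encodes trefoil factor 3, a small secreted peptide of mucus-producing epithelium, and Spink1 encodes a secreted inhibitor of trypsin that is best known from the pancreas. Egfr encodes the epidermal growth factor receptor, which is abundant on hepatocytes and relays growth signals during liver regeneration, and Mmp15 encodes a metalloproteinase anchored in the cell membrane. Foxq1 encodes a forkhead transcription factor, Cib3 a calcium- and integrin-binding protein, and Phlda1 a pleckstrin-like protein that is induced by growth signals. Cebpa encodes C/EBP alpha, a basic leucine zipper transcription factor that maintains expression of many genes of the adult hepatocyte.

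RefSeq promoters on build GRCm38.p6 were matched for 3 of the 7 members. The 250 bases before the start are shown because the series concerns a C/EBP factor, for which a site can be written TTGCNNAA. Both strands were also searched for the CCAAT box and for the GC box, written GGGCGG. Starts are those of RefSeq, and the last 28 bases of the Mmp15 window lie inside the gene as annotated by GENCODE. Capitals mark the matches, none of which overlapped another.
Mmp15, chr8:95352046-95352295, plus strand: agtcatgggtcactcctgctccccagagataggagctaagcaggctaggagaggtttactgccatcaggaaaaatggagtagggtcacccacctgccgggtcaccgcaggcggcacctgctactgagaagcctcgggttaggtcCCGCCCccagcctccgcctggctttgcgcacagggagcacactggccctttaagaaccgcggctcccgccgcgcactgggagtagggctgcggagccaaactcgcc
Egfr, chr11:16751953-16752202, plus strand: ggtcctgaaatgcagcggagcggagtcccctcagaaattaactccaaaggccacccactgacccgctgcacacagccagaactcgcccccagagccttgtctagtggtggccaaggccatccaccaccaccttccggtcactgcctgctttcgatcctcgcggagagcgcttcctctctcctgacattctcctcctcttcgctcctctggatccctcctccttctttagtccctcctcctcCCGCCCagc
Cib3, chr8:72212838-72213087, minus strand: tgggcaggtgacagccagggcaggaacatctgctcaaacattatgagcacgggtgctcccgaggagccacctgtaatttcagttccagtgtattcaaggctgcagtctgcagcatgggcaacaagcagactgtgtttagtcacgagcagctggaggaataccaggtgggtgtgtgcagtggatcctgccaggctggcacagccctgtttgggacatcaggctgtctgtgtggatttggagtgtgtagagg
The only matches were 1 GC box in Mmp15, starting 106 bases before the start site, and 1 GC box in Egfr, starting 9 bases before it. Of 32851 promoter windows of the same length, 32.7% held a GC box, 33.8% held a CCAAT box and 9.56% held TTGCNNAA on either strand. Egfr and Mmp15 windows were 60.8% and 63.6% G and C, and the Cib3 window was 55.2%, beside a median of 52.4% over all windows. A match is a description of letters, and the lack of one says only that these letters are not in this window.

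On GRCm38, with the GENCODE M21 annotation, all 7 members are protein-coding genes. Tff3 (ENSMUSG00000024029) lies at chr17:31125306-31129646 on the minus strand with 3 exons, and Spink1 (ENSMUSG00000024503) lies at chr18:43728082-43737557 on the minus strand with 4 exons. Foxq1 (ENSMUSG00000038415) lies at chr13:31556134-31560976 on the plus strand and has a single exon, overlapped on the minus strand by A530084C06Rik. Phlda1 (ENSMUSG00000020205) lies at chr10:111506286-111508645 on the plus strand with up to 2 exons, overlapped on the minus strand by the noncoding Gm28592. Egfr (ENSMUSG00000020122) lies at chr11:16752203-16918158 on the plus strand with up to 28 exons and overlaps the antisense transcript Egfros. Mmp15 (ENSMUSG00000031790) at chr8:95352268-95375080 on the plus strand has up to 10 exons, and Cib3 (ENSMUSG00000074240) at chr8:72204335-72212837 on the minus strand has up to 5. Cib3 and Mmp15 are on the same chromosome but do not overlap, and no other pair of members shares a chromosome.

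The library with suffix 1 held 17313 barcodes with a median of 1515 UMIs (unique molecular identifiers, each marking 1 captured RNA molecule), and the library with suffix 2 held 15003 with a median of 2076. Their median shares of mitochondrial UMIs were 4.07% and 41.3%, and 81 barcode sequences occurred in both. Deep hepatocytes were defined as cells of at least 5000 UMIs with at most 25% mitochondrial UMIs, at least 8% of UMIs from 8 hepatocyte markers and fewer than 50% of the markers of every other cell type. The gate held 545 cells with suffix 1 and 446 with suffix 2, with median depths of 22011 and 12001 UMIs, median mitochondrial shares of 15.3% in each, and all 8 markers in 540 and 446 cells. Cebpa reached 1.00 CPM (counts per 1000000 UMIs) in the deep hepatocytes with suffix 1, from 12 UMIs, and 107.8 CPM in those with suffix 2, from 675 UMIs.

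In deep hepatocytes, all 7 members were at least 2-fold higher with suffix 1, a direction that the choice of members fixes. Of the 6715 genes that reached 10 CPM with suffix 1 or suffix 2, 162 (2.41%) were at least 2-fold higher with suffix 1 and 129 at least 2-fold lower, and the median ratio was 1.02. With 1 library per suffix no test was possible, and the 95% intervals cover counting error only. A summed level also cannot tell more RNA per cell from more cells with the gene, so both are described.

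The secreted members differed most between the libraries. Tff3 was at 679 CPM with suffix 1 (95% Poisson interval 664 to 694, 8107 UMIs) and at 47.9 CPM with suffix 2 (42.6 to 53.6, 300 UMIs). The ratio was 14.2 (12.6 to 16.0) and had rank 2 of 6715 genes. Spink1 was at 144 CPM with suffix 1 (138 to 151) and at 12.9 CPM with suffix 2 (10.3 to 16.1), a ratio of 11.2 (8.93 to 14.1) with rank 5. With the 1% of cells richest in Spink1 left out of each library its ratio was 17.3, and with a mitochondrial limit of 10% it was 33.0. Relatives of both genes were almost absent: Tff1 had 1 UMI with suffix 1 and none with suffix 2, Tff2 had 10 and 1, and of the Kazal-type inhibitors Spink5 had 12 and 8, Spink4 had 1 and 0, and Spink2 had none.

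Cib3, Foxq1 and Phlda1, which act inside the cell, came next. Cib3 was at 88.4 CPM with suffix 1 and 12.1 CPM with suffix 2, a ratio of 7.29 (5.77 to 9.32), and Foxq1 at 51.3 and 7.66 CPM, a ratio of 6.70 (4.99 to 9.18). Phlda1 was at 230.1 CPM with suffix 1 (222 to 239) and 46.3 CPM with suffix 2 (41.1 to 51.9), a ratio of 4.97 (4.40 to 5.63). The membrane proteins had the lowest ratios. Mmp15 was at 71.7 and 19 CPM, a ratio of 3.78 (3.11 to 4.61), and Egfr at 1026 and 378 CPM, a ratio of 2.72 (2.60 to 2.84) with rank 71.

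**Figure D1:**
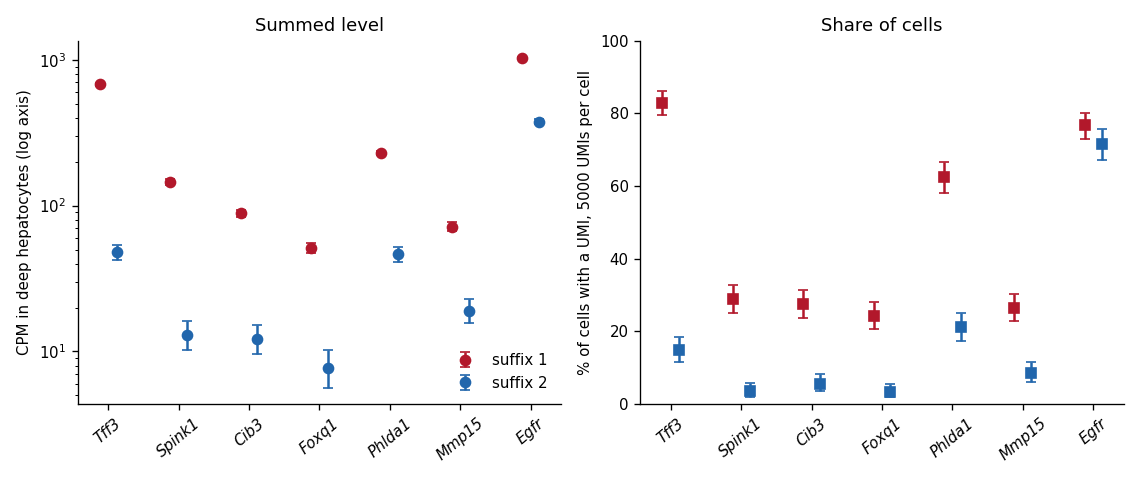
Levels of the 7 members in deep hepatocytes of the library with suffix 1 (red, 545 cells) and suffix 2 (blue, 446 cells). Left, summed CPM on a log axis with 95% Poisson intervals; right, percentage of cells with at least 1 UMI after every cell was thinned to 5000 UMIs, with 95% exact binomial intervals. Tff3 goes from 47.9 to 679 CPM and from 14.8% to 82.9% of cells, and Egfr from 378 to 1026 CPM and from 71.5% to 76.7% of cells, shares that lie farther apart when the cells are thinned to 2000 UMIs (44.4% and 63.9%).

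The share of cells with a UMI was compared at equal depth. At 5000 UMIs per cell, Tff3 was detected in 82.9% of cells with suffix 1 (95% exact binomial interval 79.5 to 86.0) and in 14.8% with suffix 2 (11.6 to 18.4). Phlda1 was detected in 62.4% and 21.1% of cells, Spink1 in 28.8% and 3.59%, Cib3 in 27.5% and 5.61%, Mmp15 in 26.4% and 8.52%, and Foxq1 in 24.2% and 3.36%. Without thinning, Tff3 had a UMI in 93.2% of the suffix 1 cells. Egfr was detected in 76.7% of cells (72.9 to 80.2) with suffix 1 and 71.5% (67.1 to 75.7) with suffix 2, with means of 4.21 and 1.68 UMIs per thinned cell. The overlap of the Egfr intervals held at this depth and over all deep hepatocytes. Thinned to 2000 UMIs its shares were 63.9% (59.7 to 67.9) and 44.4% (39.7 to 49.1), and in cells of over 10% mitochondrial UMIs thinned to 5000 they were 95.2% (92.6 to 97.1) and 84.2% (79.5 to 88.1), with intervals apart in both.

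B cells, taken as a type that should lack the members, gave the background share. At 2000 UMIs per cell, with 174 B cells of suffix 1 and 145 of suffix 2 deep enough, Tff3 was detected in 60.9% of deep hepatocytes (56.7 to 65.0) and 25.3% of B cells (19 to 32.4) with suffix 1. With suffix 2 it was in 6.95% (4.77 to 9.72) and 2.76% (0.757 to 6.91), intervals that overlap. Mmp15 was in 7.34% of deep hepatocytes (5.30 to 9.86) and 4.02% of B cells (1.63 to 8.11) with suffix 1, which also overlap. For the other 5 members the deep hepatocytes with suffix 1 stood above the B cells, as for Phlda1 (34.3% and 10.9%) and Spink1 (15.2% and 2.87%). With suffix 2, Spink1 (2.47%), Mmp15 (3.14%), Cib3 (1.79%) and Foxq1 (0.224%) in deep hepatocytes also had intervals that overlapped those of B cells. No B cell held a UMI of these genes there, with an upper bound of 2.51%. Egfr (44.4% and 12.4%) and Phlda1 (9.87% and 0.690%) had intervals apart.

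The members differed in how evenly they were spread over cells. The variance of the thinned UMI count divided by its mean, which is 1 for even expression with counting noise alone, was 1.09 for Mmp15, 1.09 for Foxq1 and 1.28 for Phlda1 in the library with suffix 1. It was 1.86 for Cib3, 2.74 for Tff3, 3.32 for Spink1 and 4.31 for Egfr. For the same relative unevenness this quotient rises with the mean count, so it does not rank members of unlike level. Mean counts ran from 0.290 UMIs per thinned cell for Foxq1 to 4.21 for Egfr. Spink1 had the largest share of its UMIs in the 10% of cells that had the most, 64.6%. Its median was 28.6 CPM per cell and its highest cell had 1818 CPM. That share was 58.5% for Cib3, 51.3% for Foxq1, 49.1% for Mmp15, 32.95% for Phlda1 and 31.5% for Tff3 and for Egfr. Sparse counts alone can raise it. Tff3 had a median of 481 CPM per cell, with 10% of cells above 1246 CPM, and Phlda1 a median of 201 CPM.

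The ratios of Egfr and Mmp15 depended on the mitochondrial share of the cells. Among cells of at most 5% mitochondrial UMIs (125 with suffix 1 and 107 with suffix 2), Egfr was at 111 CPM with suffix 1 (91.1 to 135) and 114 CPM with suffix 2 (94.0 to 138), a ratio of 0.973 (0.738 to 1.28). Mmp15 was at 7.42 and 11.4 CPM there, from 7 and 11 UMIs, a ratio of 0.649 (0.213 to 1.83). These intervals include 1, so no difference was detectable at this depth, and for Egfr the upper bound of 1.28 lay below the ratio of 2.72 over all deep hepatocytes.

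The other 5 members kept a difference in the same cells. The ratio was 14.8 for Tff3 (416 and 28.1 CPM), 17.7 for Spink1 (55.1 and 3.12 CPM, from 52 and 3 UMIs), 6.37 for Foxq1 (53.0 and 8.32 CPM), 4.86 for Cib3 (85.9 and 17.7 CPM) and 3.74 for Phlda1 (214 and 57.2 CPM). These cells were shallower, with median depths of 6050 and 7248 UMIs, and Alb was at 11405 and 27162 CPM in them. In the cells of over 10 to 25% mitochondrial UMIs (396 and 297), all 7 ratios stood above 2, with Egfr at 1117 and 443 CPM (ratio 2.52) and Mmp15 at 77.1 and 21.3 CPM (ratio 3.62). In the few cells between (24 and 42, of over 5 to 10%), at median depths of 7536 and 7713 UMIs, the ratio was 3.60 for Egfr (2.85 to 4.58), 8.41 for Mmp15 (3.01 to 32.6) and 3.85 for Foxq1, whose interval included 1 (0.767 to 37.2). It was 39.3 for Spink1 (17.8 to 108, from 245 and 6 UMIs), 17.5 for Tff3, 6.09 for Cib3 and 6.035 for Phlda1. Spp1, which encodes osteopontin, was at 5194 and 55.3 CPM in these cells. Cells were also split by depth. In those of 5000 to 10000 UMIs (149 and 184), Egfr was at 327 CPM (292 to 365) and 264 CPM (237 to 293). Mmp15 was at 20.75 CPM (12.7 to 32.0) and 16.2 CPM (10.0 to 24.8) there. The intervals of both overlapped, while those of the other 5 members stayed apart. Median mitochondrial shares in that split were 0.866% and 8.56%. The part that depth or RNA quality takes in these splits was not tested.

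**Figure D2:**
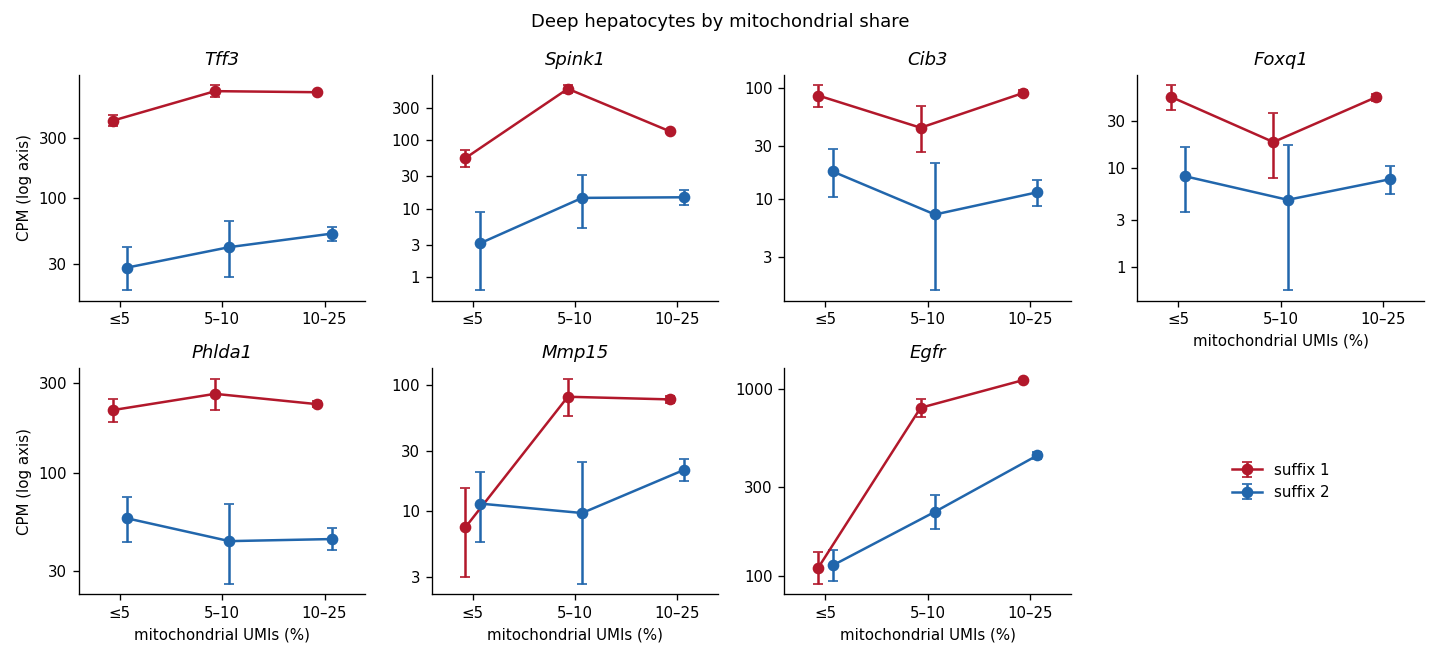
CPM of each member (log axis) in deep hepatocytes of the library with suffix 1 (red) and suffix 2 (blue), in 3 bins of mitochondrial share, with 95% Poisson intervals. In cells of at most 5% mitochondrial UMIs, Egfr (111 and 114 CPM) and Mmp15 (7.42 and 11.4 CPM) meet, while the lines of the other 5 members stay apart.

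Genes related to the members by family or pathway mostly did not share their difference. Of the 8 forkhead genes listed, 7 reached 10 CPM, and 3 of them were at least 2-fold higher with suffix 1 in deep hepatocytes: Foxq1, Foxa1 (15.7 and 5.59 CPM, ratio 2.80) and Foxa2 (44.5 and 19.6 CPM, ratio 2.26). Without Foxq1, which was chosen for this difference, 2 of 6 were, beside 2.41% of all genes that reached 10 CPM. Foxa1 and Foxa2 are pioneer factors of liver development. Foxa3, Foxo1, Foxo3 and Foxp1 had ratios of 1.32, 1.04, 1.11 and 1.04, and the median of the 6 without Foxq1 was 1.21.

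Among the receptors of the EGFR family, levels moved in opposite directions between the libraries. Erbb3, which lacks strong kinase activity and signals with partners, was at 49.9 CPM with suffix 1 and 28.7 CPM with suffix 2, a ratio of 1.74 (1.47 to 2.06). Erbb4 was at 2.18 CPM with suffix 1 and 28.6 CPM with suffix 2, a ratio of 0.0762 (0.0484 to 0.115), and Erbb2 had 2 UMIs and none. Only 1 of 7 listed ligands reached 10 CPM: Tgfa, at 11.0 and 7.82 CPM (ratio 1.40).

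None of the feedback genes of EGFR signalling that reached 10 CPM was 2-fold different. Errfi1, which encodes an inhibitor that binds the receptor, was at 846 and 749 CPM (ratio 1.13), Lrig1 had a ratio of 1.58 and Dusp6 a ratio of 0.757. Of the 4 MAPK target genes that reached 10 CPM, Egr1 was 2-fold lower with suffix 1 (6.11 and 18.0 CPM, ratio 0.339), and Jun, Ier2 and Dusp1 had ratios of 0.822, 0.774 and 1.01. Of the sparser genes in these lists, Socs3 had 34 and 4 UMIs (ratio 4.46, 1.59 to 17.3), Myc had 38 and 4 (ratio 4.98, 1.79 to 19.2) and Fos had 56 and 59 (ratio 0.498, 0.339 to 0.730). For genes that reached 10 CPM, the median was 1.13 in the feedback list and 0.798 in the target list.

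In the other families, Mmp14 was at 6.70 and 7.34 CPM, Mmp16, Mmp17, Mmp24 and Mmp25 had no UMI in either library, and none of the 4 Timp genes reached 10 CPM. Cib1 had a ratio of 0.892 beside the 7.29 of Cib3, and Phlda2 had 27 UMIs with suffix 1 and 1 with suffix 2. Of the genes of mucus and secretory epithelium, 2 of 6 reached 10 CPM: Pigr, the receptor that carries polymeric immunoglobulin across epithelium, at 1061 and 763 CPM (ratio 1.39), and Lcn2 at 4.44 and 13.3 CPM (ratio 0.335). Agr2 had no UMI, and Muc1 had 3 and 1. Of the 6 acinar pancreas genes only Cela1 reached 10 CPM, at 59.0 and 44.1 CPM (ratio 1.34), and Cpa1, Cel, Pnlip and Ctrb1 had no UMI. Of the 6 fetal hepatocyte genes only the noncoding RNA H19 did, at 26.0 and 6.55 CPM (ratio 3.98), and Afp had 10 and 2 UMIs.

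The number of members per cell was set beside that of genes placed independently of each other. If each member were placed among the 545 thinned suffix 1 cells independently, 78.1 cells would hold at least 5 members and 411 at least 3. The observed counts were 87 cells (16.0%, interval 13 to 19.3) and 404 cells (74.1%, 70.2 to 77.8), whose intervals hold the numbers under independence. Cells with no member were more frequent than that: 538 cells held at least 1 (98.7%, 97.4 to 99.5) beside 543 under independence. In the library with suffix 2, 34 of 446 cells held at least 3 members, beside 33.0 under independence.

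For single pairs, the number of cells with both genes was divided by the number expected from their separate shares. The 95% Poisson interval of this quotient included 1 for 20 of 21 pairs with suffix 1 and for 21 of 21 with suffix 2. It did not for Mmp15 and Egfr with suffix 1, which occurred together in 133 cells against 110 expected (1.20, 1.01 to 1.43). The quotient is bounded where a gene is in most cells: with suffix 1 it could not pass 1.21 for a pair with Tff3 or 1.30 for a pair with Egfr. The Poisson interval also ignores that the separate shares are fixed, so it is too wide for genes found in many cells. For Tff3 and Spink1 its upper end of 1.24 passed the highest possible value of 1.21. An interval that includes 1 therefore does not show independence. Tff3 and Spink1 had a quotient of 1.05 (0.883 to 1.24), and the lowest with suffix 1 was that of Foxq1 and Cib3, 0.716.

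**Figure D3:**
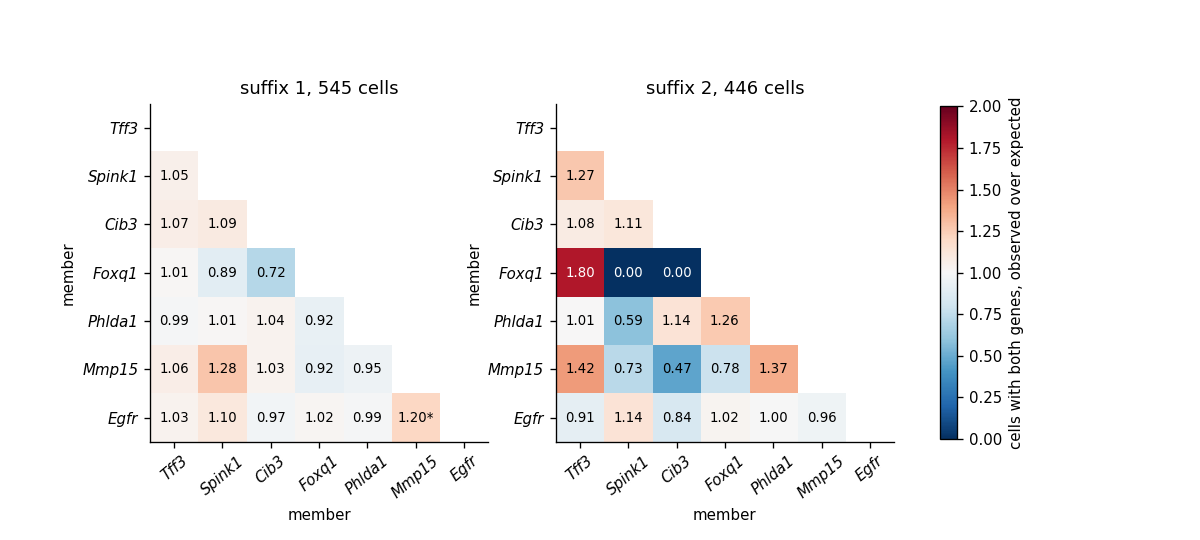
Cells with both genes of a pair, observed over expected, in deep hepatocytes thinned to 5000 UMIs with suffix 1 (left, 545 cells) and suffix 2 (right, 446 cells); 1 (white) is the value for genes placed independently and an asterisk marks an interval that leaves out 1. With suffix 1 the values run from 0.716 to 1.28 and only Mmp15 with Egfr carries an asterisk; the squares farthest from 1 with suffix 2 are pairs that few cells held together.

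Pearson's r between members over single cells was at most 0.230. Over the 545 suffix 1 cells, which share a library and were thinned to 1 depth, its median was 0.0197 over the 21 member pairs and -4.16e-05 over all pairs of 6382 genes. Of the member pairs, 5 of 21 lay above 0.0986, the value that 5% of all pairs pass, and with suffix 2 1 of 21 lay above the corresponding 0.0998 (Tff3 with Foxq1, 0.107, from 4 cells with both genes). The suffix 2 limit is taken over genes of at least 10 CPM in the thinned cells, which Foxq1 did not reach. Only 5 members did, and the median r of their 10 pairs was -0.0085. The 5 pairs with suffix 1 were Mmp15 with Egfr (0.230), Tff3 with Spink1 (0.181), Tff3 with Cib3 (0.169), Spink1 with Mmp15 (0.110) and Tff3 with Egfr (0.0987). After linear removal of mitochondrial share, depth and position score these were 0.0675, 0.0805, 0.128, 0.0663 and -0.0567. Egfr had higher values with many genes: 5% of genes passed 0.231 with it. Neither of its 2 pairs did, as 94.9% of genes lay below Mmp15 and 75.9% below Tff3. Seen from the other gene, Egfr lay above 99.7% of genes for Mmp15 and 97.1% for Tff3. With suffix 2, r with Tff3 was -0.0026 for Spink1 and 0.0036 for Cib3, which only 16 and 25 of the 446 thinned cells held, and the difference between the libraries was not tested. Pairs that share a gene are not independent, and the values are given as a description of sparse counts.

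The cells were then ranked by the Tff3 count among 5000 of their UMIs, and levels were taken from their remaining UMIs. In the library with suffix 1, Spink1 was at 116 CPM in the 93 cells with no Tff3 UMI (98.2 to 137) and at 225 CPM in the 91 cells with at least 6 (205 to 246). Cib3 was at 64.2 CPM (50.9 to 79.9) and 118 CPM (104 to 134) in the same cells. Phlda1 (234 and 213 CPM), Foxq1 (36.9 and 41.4 CPM), Mmp15 (68.2 and 77.9 CPM) and Egfr (972 and 1055 CPM) differed by less than 1.2-fold between these end groups, with overlapping intervals. Foxq1 and Egfr were higher in the 202 cells with 1 or 2 Tff3 UMIs (57.6 and 1098 CPM) than in those with none, by intervals that did not overlap. Median depth was 15203 UMIs in the cells without Tff3 and 30082 in those with at least 6. Its part in the differences was not tested. With suffix 2, Spink1 was at 14.8 CPM in the 380 cells without Tff3 and 21.1 CPM in the 58 with 1 or 2 UMIs, and Cib3 at 12.5 and 6.34 CPM, with overlapping intervals.

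**Figure D4:**
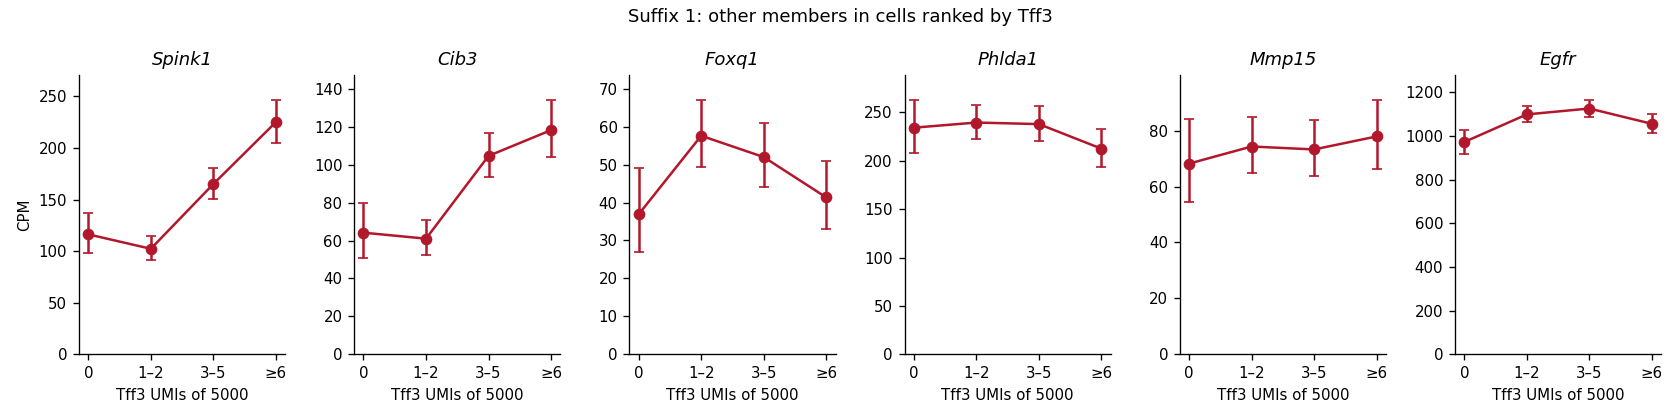
CPM (linear axes from 0) of the other 6 members in deep hepatocytes with suffix 1, grouped by how many of 5000 UMIs were Tff3, with 95% Poisson intervals; cells were ranked on one set of UMIs and levels read from the others. Spink1 goes from 116 to 225 CPM and Cib3 from 64.2 to 118 CPM, and the other 4 end within 1.2-fold of where they start.

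The genes whose counts were most like Tff3 over suffix 1 cells were apolipoprotein and transport genes of the hepatocyte: Apoc2 (r = 0.347), Apoa1 (0.335), Apoa2 (0.335), Apoc3 (0.328) and Ttr (0.311), among 1088 genes of at least 100 CPM. None of these 5 differed 2-fold between the libraries. For Spink1 they were Spp1 (0.398), which encodes osteopontin, then Apoc2 (0.364), Tm4sf4 (0.331), Ttr (0.260) and Cp (0.245). With suffix 2, where both members are sparse, the highest r was 0.155 for Tff3 (Ndufb6) and 0.169 for Spink1 (Ptprf).

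Spink1 had its highest level in a few hepatocytes rich in Spp1. In the library with suffix 1, 14 of 545 deep hepatocytes had at least 2000 CPM of Spp1, a limit set after the values were seen, and held 25.6% of all Spink1 UMIs, with the other 74.4% in the remaining 531 cells. The median depth was 39420 UMIs in the 14 cells and 21638 in the rest, and its part was not tested. Spink1 was at 939 CPM in them (853 to 1031), with a UMI in 13 of 14 cells, and at 112 CPM in the rest (106 to 118). In the library with suffix 2 the 3 cells past that limit had 245 CPM (145 to 387) and the other 443 had 10.2 CPM (7.82 to 13).

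Levels of the other members in these cells varied by member and library. With suffix 1, Tff3 was at 703 CPM in the Spp1-rich cells and 678 CPM in the rest, Phlda1 at 245 and 229.5 CPM, and Cib3 at 80.9 and 88.7 CPM, with overlapping intervals. Mmp15 was at 97.9 CPM (71.7 to 131) and 70.7 CPM (65.9 to 75.7), with a UMI in 13 of the 14 cells. Foxq1 was lower, at 25.5 CPM (13.2 to 44.6) against 52.4 CPM (48.3 to 56.7), and so was Egfr, at 784 against 1036 CPM. The defining bile duct keratins Krt19 and Krt7 had no UMI in the 14 cells, Epcam had 4 UMIs in 1 cell, and Sox9, a transcription factor of bile duct and progenitor cells, was at 55.4 CPM against 7.49 CPM. Krt19, Krt7 and Epcam are among the bile duct markers that the hepatocyte gate limits. Their low counts are therefore partly set by the gate. With suffix 2 Sox9 had 1 UMI in the 3 cells (13.6 CPM, 0.345 to 75.9) and 19.4 CPM in the rest. Tm4sf4, one of the genes most like Spink1, was at 419 CPM in the Spp1-rich cells and 109 CPM in the rest with suffix 1, and at 654 and 122 CPM with suffix 2. Alb, the main hepatocyte transcript, was at 39051 and 38101 CPM with suffix 1. In the 3 cells with suffix 2, Cib3 was at 136 CPM (65.3 to 250), with all 10 UMIs in 1 cell, against 10.7 CPM in the rest, and Mmp15 at 68.1 CPM (22.1 to 159) against 18.4 CPM. Without the Spp1-rich cells the ratio of Spink1 between the libraries was 11.0.

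Along the lobule, Tff3 and Spink1 varied most with suffix 1. Over all deep hepatocytes, divided into 3 equal groups by a score of 8 pericentral over 8 periportal genes, Tff3 was at 840 CPM in the most periportal and 376 CPM in the most pericentral group, and Spink1 at 191.5 and 75.3 CPM. Egfr was at 1139 and 771 CPM, Cib3 at 102 and 66.3 CPM and Mmp15 at 78.5 and 55.1 CPM, also with intervals apart, while the intervals of Foxq1 (53.0 and 45.3 CPM) and Phlda1 (234 and 228 CPM) overlapped. With suffix 2, Egfr was at 452 and 224 CPM, Tff3 at 62.3 and 25.2 CPM and Spink1 at 21.8 and 1.94 CPM. Depth and mitochondrial share were lower in the most pericentral group too, going from medians of 30459 UMIs and 15.9% to 9950 UMIs and 10.8% with suffix 1 and from 18908 UMIs and 16.5% to 7656 UMIs and 7.60% with suffix 2, and their part was not tested.

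The groups were also formed within the cells of higher mitochondrial share. Cells of over 10% mitochondrial UMIs and at least 10000 UMIs were divided by the same score, taken from 5000 of their UMIs, and levels were taken from the remaining UMIs. With suffix 1, Tff3 fell from 879.5 CPM (847 to 913) in the most periportal group through 699 CPM to 538 CPM (510 to 567) in the most pericentral group. Spink1 fell from 181 CPM (166 to 197) through 142 CPM to 87.9 CPM (76.9 to 100). Egfr (1139, 1173 and 1087 CPM), Foxq1 (52.4, 54.5 and 53.2 CPM), Phlda1 (229, 246 and 229 CPM), Mmp15 (82.9, 83.8 and 72.9 CPM) and Cib3 (93.7, 95.3 and 83.7 CPM) stayed within 1.2-fold.

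With suffix 2, Spink1 followed the same order, with 33.7 CPM (23.7 to 46.4), 16.8 CPM and 7.83 CPM (3.38 to 15.4), whereas Tff3 had 51.9, 67.1 and 45.0 CPM with overlapping intervals. Cyp2e1, a pericentral gene of the score, was at 132 CPM in the most periportal and 653 CPM in the most pericentral group with suffix 1, while Cyp2f2 was at 2139 and 2047 CPM. The pericentral list and the periportal list themselves held genes that differed 2-fold between libraries, 3 of 5 and 2 of 8 of those that reached 10 CPM, so groups of the same name may hold different cells in the 2 libraries. Median depth fell along the groups, from 32286 to 25988 UMIs with suffix 1.

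In most other cell types Tff3 was higher with suffix 1, while the intervals of Egfr overlapped between the libraries in several of them. B cells carried Tff3 at 142 CPM in the library with suffix 1 (177 cells, 43.5% with a UMI) and at 8.43 CPM with suffix 2 (151 cells, 3.31%). Per 1000 UMIs of Alb, a hepatocyte transcript, Tff3 came to 12.8 in B cells, 11.7 in T cells and 9.80 in Kupffer cells or macrophages with suffix 1, against 17.8 in deep hepatocytes. Egfr was at 59.3 and 67.4 CPM in B cells, 60.7 and 50.5 CPM in Kupffer cells or macrophages, 89.8 and 79.8 CPM in endothelial cells and 59.7 and 50.9 CPM in conventional dendritic cells. These levels serve as the background for the other gates, and their source was not tested. Droplets below 5000 UMIs with the hepatocyte gate (8651 and 3352) had Tff3 at 535 and 40.5 CPM, Spink1 at 71.7 and 6.27 CPM and Phlda1 at 131 and 23.9 CPM, while Egfr was at 212 and 187 CPM.

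Mmp15 was also found in cholangiocytes, the cells that line bile ducts. It was at 105 CPM in the 24 cholangiocytes with suffix 1 (34 UMIs, in 58.3% of cells) and 67.1 CPM in the 14 with suffix 2 (9 UMIs, in 42.9% of cells). Per 1000 Alb UMIs this was 8.06 and 7.87, compared with 1.88 and 0.460 in deep hepatocytes and 1.43 and 0.134 in B cells. A lower Alb raises this quotient, and Alb was at 13045 and 8526 CPM in cholangiocytes against 38138 and 41259 CPM in deep hepatocytes. The CPM intervals of the cholangiocytes of both libraries, 72.8 to 147 and 30.7 to 127, overlapped. In deep hepatocytes Mmp15 was at 71.7 CPM with suffix 1 (67.0 to 76.7), which overlaps, and at 19 CPM with suffix 2 (15.7 to 22.7), which does not. Without the top cell the cholangiocyte level with suffix 1 was 87.3 CPM.

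Spink1 in cholangiocytes with suffix 1 rested on 1 cell, which held 68 of 72 UMIs: the level of 223 CPM was 15.6 CPM without it. Likewise 27 of 47 Tff3 UMIs were in 1 cell, and the level of 145 CPM was 77.7 CPM without it. For Egfr in T cells with suffix 1, 1 of 560 cells held 141 of 438 UMIs, and leaving it out changed 133 to 90.8 CPM.

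In stellate cells or fibroblasts Egfr had the most UMIs of the 7 members, at 191 CPM in 17 cells with suffix 1 (13 UMIs, 102 to 327) and 344 CPM in 19 cells with suffix 2 (16 UMIs, 197 to 559). Per 1000 Alb UMIs this came to 20.1 and 23.4, against 26.9 and 9.15 in deep hepatocytes and 5.37 and 5.35 in B cells. Mmp15, Foxq1 and Cib3 had no UMI in these cells, where 3 UMIs would come to 44.2 CPM with suffix 1 and 64.6 CPM with suffix 2 and the exact upper Poisson bounds are 54.3 and 79.4 CPM. Tff3 had 9 UMIs in 6 cells with suffix 1 (132.5 CPM, 60.6 to 252) and 1 UMI with suffix 2, Phlda1 had 4 and 2, and Spink1 had 1 and 0.

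**Figure D5:**
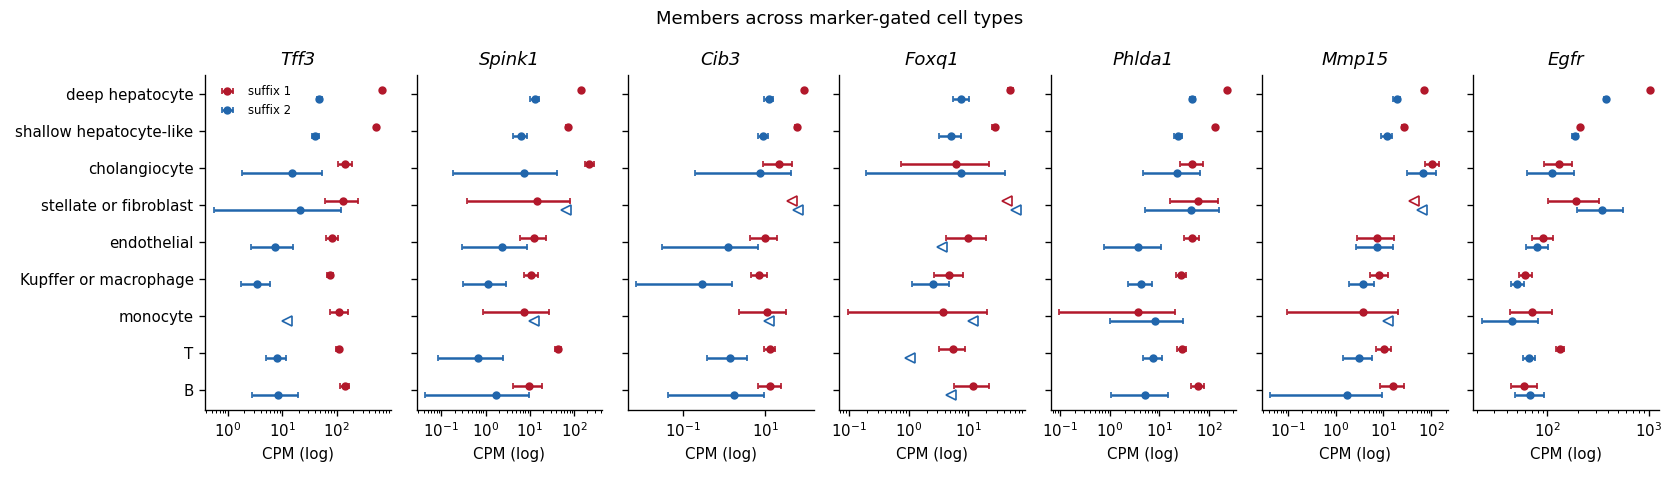
CPM (log axes) of the 7 members in deep hepatocytes and 8 other gates, with suffix 1 (red) and suffix 2 (blue) and 95% Poisson intervals; open triangles mark 0 UMIs, drawn at the level of 3 UMIs. Mmp15 in cholangiocytes (105 and 67.1 CPM) and Egfr in stellate cells or fibroblasts (191 and 344 CPM) have overlapping intervals between the libraries, whereas Tff3 is higher with suffix 1 in B, T, Kupffer and endothelial cells as it is in hepatocytes.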

How the data were processed

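The deposited matrix holds whole-number UMI counts per gene and barcode, which the authors made with Cell Ranger 7.1.0 (file header) from both capture lanes. The submitters' processing notes also name bcl2fastq 2.20.0, STAR 2.7.2a and mm10. The annotation, the intron setting and any equalising of depth between lanes are not given in the sources used. Barcodes were kept with at least 500 UMIs, 200 genes and at most 25% mitochondrial UMIs. Other cell types needed at least 60% of their markers and under 8% of UMIs from hepatocyte markers. Erythroid markers counted against a hepatocyte only from 5% of UMIs. Gate limits were set after values were seen, and the members and gene lists were chosen with earlier results of these data known. Hepatocytes with at least 50% of another type's markers (99 and 112) were left out as possible doublets; no doublet caller was run. The named genes are the 7 members, the listed genes, and the 5 genes most correlated with Tff3 and with Spink1 per library; Epcam, Krt19, Krt7 and Sox9 were added after their values were seen. Counts were summed per gate and library and divided by all UMIs (CPM), with exact Poisson intervals, exact conditional binomial intervals for ratios and exact binomial intervals for shares, at 95%. For ranking genes by ratio, 3 UMIs were added to each sum. Correlations used log(1 + count) after thinning. Ratio intervals and calls were tested on simulated data. Python 3.11.15, numpy 2.4.6, scipy 1.17.1 and pandas were used.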

Additional observations from a re-analysis of the deposited data

How the results depend on the processing

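All 7 members were at least 2-fold higher with suffix 1 under 15 of the 16 alternatives for the ratio; in cells of at most 5% mitochondrial UMIs, an alternative added after the data were seen, 5 of 7 were. There the ratio was 0.973 for Egfr, 0.649 for Mmp15, 17.7 for Spink1, 4.86 for Cib3 and 3.74 for Phlda1. With a mitochondrial limit of 10% it was 33.0 for Spink1, 2.80 for Mmp15, 2.23 for Egfr, 5.01 for Cib3 and 4.32 for Phlda1, and with no limit 17.5 for Tff3, 2.90 for Egfr and 5.92 for Phlda1. With the 1% of cells richest in the gene left out it was 17.6 for Tff3, 17.3 for Spink1 and 9.48 for Cib3. With the B cell level subtracted it was 3.12 for Egfr and 4.14 for Phlda1. For Egfr it was also 2.51 at a minimum of 2000 UMIs, 2.52 in cells of over 10% mitochondrial UMIs (added) and 2.49 as a mean over cells. The causes of these shifts were not tested. The other 107 of 128 values stayed within the counting interval or the count as reported. Bins of depth were not among the 16 alternatives. In cells of 5000 to 10000 UMIs the intervals of Egfr and of Mmp15 overlapped between the libraries. The share of all genes at least 2-fold higher with suffix 1, 2.41%, was taken for the main setting only.

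The number of pairs whose interval included 1 was 20 or 21 of 21 in every setting and library; in cells of over 10% mitochondrial UMIs or thinned to 10000 UMIs, Egfr was in so many cells with suffix 1 that its pairs could not pass a quotient of 1.05 or 1.06, so these settings say little about Mmp15 with Egfr. With suffix 1 the interval of this pair also included 1 when cells were thinned to 2000 UMIs (1.21, 0.825 to 1.72) or the mitochondrial limit was 50% (1.146, 0.963 to 1.35). Thinned to 10000 UMIs with suffix 1, pairs with Tff3 could not pass 1.06 and pairs with Phlda1 could not pass 1.135. The Poisson intervals are also too wide for genes in many cells, so the count of pairs does not show independence in any setting. Of single values, 120 of 210 levels in deep hepatocytes, 148 of 168 pair quotients and 461 of 513 levels in other cell types stayed within their intervals. Cholangiocytes (24 and 14) and stellate cells or fibroblasts (17 and 19) are few, so a difference between libraries there would be hard to detect. No paired analysis was possible because each group is 1 sample and the result comes from no test, and no library could be left out.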
